A study of Mus musculus with 2 samples.

Results

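The barcodes described here are those of a single-cell RNA survey of mouse testis that carried a Sertoli cell signature, taken from 1 Nsun7 knockout (KO) library and 1 wild-type (WT) library. A barcode was a member when it had 200 or more genes, at most 20% of its counts on mitochondrially encoded genes, and at least 5 counts and 0.3% of all its counts on Cst9, Cst12, Aard, Rhox8, Clu and Gatm summed. It also had to hold less than 0.5% of its counts on the Leydig cell genes Insl3, Cyp17a1, Cyp11a1, Hsd3b6 and Star. The rule found 534 members among 13869 kept barcodes of the KO library and 658 among 15139 of the WT library, 1192 of 29008 in all. Members were thus chosen by the measured counts of these genes, so the high level of the 6 genes, and of genes that accompany them, describes the choice.

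Both libraries came from testes of adult mice, and the groups were Nsun7 knockout testis and WT testis. The labels name neither the knocked-out allele, the strain, an exact age nor the number of animals, and no treatment. Tissue was minced, digested with a tumor dissociation kit, strained and treated with a lysis buffer before droplet capture of polyadenylated RNA. The title of the study names NSUN7 as a regulator of sperm flagellum assembly, and the design sets KO testis beside WT testis. With 1 library per genotype there was no test of a genotype difference, and every interval below is a 95% interval that covers counting error only, not the spread between animals.

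The KO library held 16837 barcodes with 210531446 counts and the WT library 16376 barcodes with 220247156 counts. Members were shallow: their median was 1977 counts in KO and 2123 counts in WT, against 12429 in KO and 9123 in WT among the other kept barcodes. Mitochondrially encoded genes took a median of 13.6% of a member's counts in KO and 13.5% in WT, against 0.210% and 0.920% in the other kept barcodes. The libraries shared 2168 barcode names, 2 of them names of members in both.

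Sertoli cells are the somatic cells of the seminiferous tubule. They enclose the developing germ cells, build the blood-testis barrier with their tight junctions, engulf the residual cytoplasm that spermatids shed, and secrete transport proteins, protease inhibitors and hormones such as inhibin into the tubule and the blood. They answer to follicle-stimulating hormone and testosterone, and SOX9 and WT1 are the transcription factors that define and maintain them.

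Sequence upstream of 4 of the genes that led the members is shown first, because Cst9 and Cst12 led the members from the same cystatin cluster, and Defb36 and Amhr2 are leading genes outside the rule whose windows held a searched motif. The windows are the 250 bases before the annotated start in RefSeq, build GRCm38.p6, read 5′ to 3′ on the gene's strand. They lie at chr2:148834897-148835146, + strand, for Cst9; chr2:148789115-148789364, + strand, for Cst12; chr2:152604077-152604326, + strand, for Defb36; and chr15:102445117-102445366, + strand, for Amhr2. Capitals mark matches on either strand to the SOX factor core ACAAT, to the core of GATA factors written as AGATAA, to the steroid receptor half-site written as AGAACA, or to the NR5A receptor motif AAGGTCA.
Cst9: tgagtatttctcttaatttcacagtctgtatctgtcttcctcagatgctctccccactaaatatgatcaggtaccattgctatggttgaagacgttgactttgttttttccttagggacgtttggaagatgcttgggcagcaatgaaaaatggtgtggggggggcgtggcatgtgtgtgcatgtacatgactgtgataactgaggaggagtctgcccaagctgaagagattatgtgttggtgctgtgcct
Cst12: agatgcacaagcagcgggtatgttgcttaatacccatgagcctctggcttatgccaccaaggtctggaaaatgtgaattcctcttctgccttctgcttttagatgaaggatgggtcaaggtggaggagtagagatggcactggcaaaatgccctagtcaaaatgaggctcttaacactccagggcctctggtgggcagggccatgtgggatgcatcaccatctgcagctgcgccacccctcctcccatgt
Defb36: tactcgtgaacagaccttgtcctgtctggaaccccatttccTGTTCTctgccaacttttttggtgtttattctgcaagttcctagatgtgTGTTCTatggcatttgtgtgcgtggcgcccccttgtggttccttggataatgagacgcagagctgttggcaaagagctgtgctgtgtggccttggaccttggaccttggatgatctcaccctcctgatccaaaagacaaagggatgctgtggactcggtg
Amhr2: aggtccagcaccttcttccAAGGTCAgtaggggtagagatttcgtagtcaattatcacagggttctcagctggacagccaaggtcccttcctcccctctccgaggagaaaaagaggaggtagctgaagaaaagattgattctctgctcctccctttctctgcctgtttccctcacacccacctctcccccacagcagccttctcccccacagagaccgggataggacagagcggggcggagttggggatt
Defb36 held 2 matches to the steroid receptor half-site, both on the opposite strand, and Amhr2 held 1 to the NR5A motif. Among the other leading genes Ctsl held 1 SOX match and Reep1 held 1 match to the GATA motif. Neither cystatin window held any of the 4. Of the 298 genes at 8 or more times their level in the other barcodes in both libraries, 246 had a window, and 17.5% of these held the SOX motif, 5.69% the GATA motif, 9.76% the half-site and 2.44% the NR5A motif. Over the 3051 windows of all genes that averaged 50 CPM (counts of the gene per 1000000 counts of the members) the shares were 20.9%, 5.21%, 10.3% and 3.28%, and over all 27025 windows 28.3%, 10.3%, 16.2% and 4.05%, in the same order. A match is a run of letters, not a bound site.

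The Sertoli label was checked with 12 markers that the rule did not use: Sox9, Wt1, Amhr2, Fshr, Cldn11, Ctsl, Defb19, Rhox5, Tsx, Trf, Amh and Dhh. After each barcode had been thinned to 1000 counts, 95.9% of KO members and 95.3% of WT members carried at least 1 of them, against 13.2% and 17.6% of the other kept barcodes. At least 3 were carried by 51.1% of KO members and 56.1% of WT members, against 0.480% and 0.470% of the others. Without thinning the shares with 3 or more were 79.4% and 79.3% in members and 10.3% and 14.1% in the others, whose depth was several times greater.

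Defb19, a beta-defensin of the Sertoli cell, was the most widely detected marker after thinning, in 80.2% of KO and 80.4% of WT members against 6.87% and 7.28% of the others. Amhr2, the type II receptor of anti-Müllerian hormone, was detected in 44.6% of KO and 41.6% of WT members against 1.49% and 1.75% of the others. The 2 defining transcription factors were seldom caught at this depth: Sox9 in 6.74% of KO and 9.73% of WT members against 0.0900% and 0.249% of the others, and Wt1 in 12.6% and 13.1% of members. Fshr, the receptor of follicle-stimulating hormone, had 29 counts over all KO members and 58 over all WT members. Amh, a hormone of the immature Sertoli cell, had 0 counts in KO and 4 in WT. The markers outside the rule went with the label, and spermatid transcripts were in nearly every member: the protamine Prm2 was detected in 99.6% of KO and 96.7% of WT members.

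The 20 genes with the highest ratio of members to other kept barcodes covered secretion, barrier, cytoskeleton and metabolism. Cst9, a cystatin of the tubule, stood at 1565 CPM in KO members and 2011 CPM in WT members, against 27.5 CPM and 29.4 CPM in the other barcodes of each library. Clu, which encodes the extracellular chaperone clusterin, was the most abundant of the rule's genes at 3140.2 CPM in KO and 5872 CPM in WT members, against 94.0 CPM in KO and 109.8 CPM in WT in the others. Among leading genes outside the rule, the lysosomal protease gene Ctsl reached 1491 CPM in KO and 2639 CPM in WT, and the beta-defensin Defb36 746 CPM in KO and 741 CPM in WT.

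Barrier and adhesion genes were also among the 20. Cldn11, the main claudin of Sertoli tight junctions, had 272 CPM in KO and 482 CPM in WT members, against 3.21 CPM in KO and 4.46 CPM in WT in the others. Espn, an actin-bundling protein of the ectoplasmic specialization that holds spermatids, had 521 CPM in KO and 830.3 CPM in WT members and 10.4 CPM in KO and 19.7 CPM in WT in the others. Qpct, which encodes glutaminyl cyclase, and Gpm6b, a membrane glycoprotein gene, were 99.4 and 92.8 times their level in the others in KO, and 109 and 128 times in WT. In all, 1305 of 3787 genes averaging 50 CPM (34.5%) were 2 or more times the rest in both libraries, and 298 (7.87%) were 8 or more times the rest, with 5 CPM added to both sides, which follows in part from the choice of members.

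**Figure D1:**
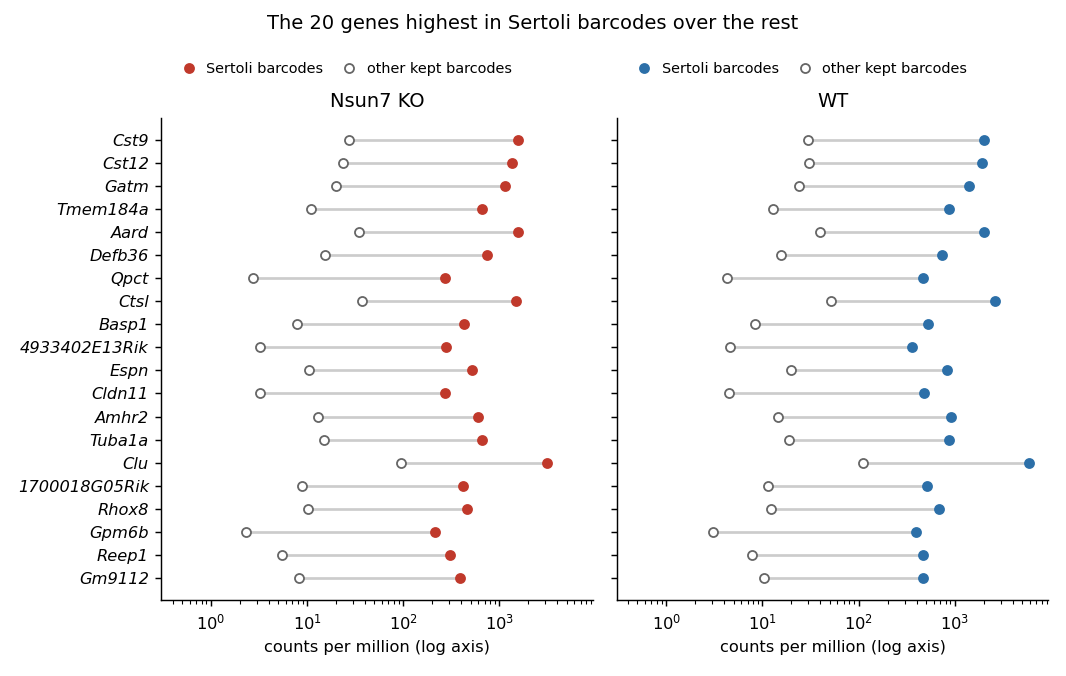
CPM (log axis) of the 20 genes with the highest ratio of members to other kept barcodes, KO library on the left and WT library on the right; filled points are members and open points the other kept barcodes. Every filled point lies far to the right of its open point, for example Cst9 at 1565 CPM against 27.5 CPM in KO and 2011 CPM against 29.4 CPM in WT.

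Several of the leading genes are neighbours in the genome (GRCm38). Cst12 (chr2:148789361-148793546, + strand) and Cst9 (chr2:148835147-148838738, + strand) flank Cst8 and Cst13 in the cystatin cluster. The genes of the cluster differed in where they were found. Cst3, the cystatin gene of many tissues, had 554 CPM in KO and 776 CPM in WT members, against 169 CPM in KO and 187 CPM in WT in the others. Cst8, Cst13 and Cstl1 ran the other way: Cst8 had 549 CPM in KO and 215 CPM in WT members, against 1116 CPM in KO and 569.8 CPM in WT in the others, Cst13 85.4 CPM in KO and 46.1 CPM in WT members, against 162 CPM in KO and 118 CPM in WT, and Cstl1 255 CPM in KO and 81.1 CPM in WT members, against 555 CPM in KO and 247 CPM in WT. Defb19 (chr2:152576086-152580312, − strand) and Defb36 (chr2:152604327-152612729, + strand) are a second pair on the same chromosome. Genes on the X chromosome made up 43 of the 296 placed genes at 8 or more times the rest (14.5%, 10.7 to 19.1), beside 133 of the 3758 placed genes at 50 CPM (3.54%). Rhox8 (chrX:37874778-37878944, − strand) and Rhox5 (chrX:37804842-37808876, + strand), homeobox genes of the reproductive cluster, were among the 43, at 455 CPM in KO and 678 CPM in WT and 107 CPM in KO and 166 CPM in WT members; of the 10 listed Rhox genes in the files these were the only 2 at 10 CPM or more in either library.

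The members were not alike. Their share of the 6 rule genes had a median of 0.790% and a maximum of 4.59% in KO, and a median of 0.893% and a maximum of 3.74% in WT. Just inside the limit, between 0.30% and 0.33%, lay 30 KO and 28 WT barcodes, whose 12 other markers summed to 1751 CPM and 1600.4 CPM. Just outside, between 0.27% and 0.30%, lay 34 and 32 barcodes with 1531 CPM and 1535 CPM. The limit on Leydig genes removed 88 KO and 100 WT barcodes that met the rest of the rule.

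Transcripts of condensing spermatids varied against the Sertoli genes. The 6 condensing spermatid genes Prm1, Prm2, Tnp1, Tnp2, Smcp and Odf1 took a median of 6.40% of a member's counts in KO and 3.01% in WT. Where the rule genes held 0.3 to 0.5%, the median was 10.2% in KO (143 barcodes) and 2.99% in WT (143). At 0.5 to 1% it was 8.13% in KO (194) and 3.96% in WT (225), and at 1 to 2% it was 5.21% in KO (148) and 2.78% in WT (224). Where they held 2% or more it was 3.50% in KO (49) and 0.677% in WT (66). Over the same 4 bands the 12 markers outside the rule summed to 2123, 3807, 7765 and 12796 CPM in KO and to 1952, 3872, 8511 and 12436 CPM in WT. Sox9 followed them, at 26.1, 54.6, 129 and 244 CPM in KO and 29.4, 66.0, 249 and 313 CPM in WT. Both shares are parts of the same total, so a barcode with more of the one has room for less of the other.

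The libraries differed in how deep their members were. At 5000 counts or more there were 98 KO members (18.4%, 15.2 to 21.9) and 181 WT members (27.5%, 24.1 to 31.1). Of these, 63 in KO and 17 in WT held 10% or more of their counts on condensing spermatid genes. Deep barcodes that also held 1% or more on the rule genes numbered 20 of 534 in KO (3.75%, 2.30 to 5.73) and 113 of 658 in WT (17.2%, 14.4 to 20.3), with median depths of 20102.5 and 17409 counts. Below 5000 counts, the barcodes at 1% or more numbered 177 in each library.

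**Figure D2:**
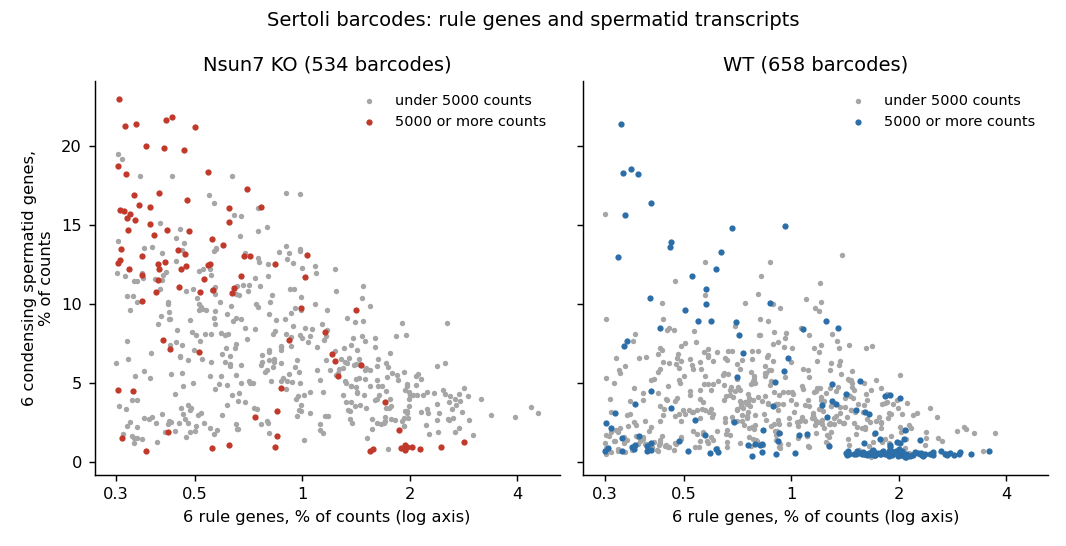
Each point is a member barcode, KO on the left and WT on the right, with the percent of its counts on the 6 rule genes (x, log axis) and on the 6 condensing spermatid genes (y); coloured points have 5000 or more counts and grey points fewer. The coloured KO points (98) lie mostly at a low rule share and a high spermatid share, while the coloured WT points (181) gather at 1% or more with few spermatid counts (113 of them, against 20 in KO).

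Variability was ranked among the deep members, thinned to 5000 counts each, only over genes higher in members than in the rest. The condensing spermatid genes were therefore not in the ranking. Clu was the most variable of the ranked genes by the lower of its values in the 2 libraries. Its median was 5 counts in KO (range 0 to 99) and 32 counts in WT (range 1 to 86), and its variance was 22.6 times its mean in KO and 13.9 times in WT. Sparc, a matrix protein gene, gave 12.7 in KO and 14.0 in WT by the same measure, and Ctsl 9.55 and 11.3. Igfbp7, which encodes an insulin-like growth factor binding protein, gave 10.99 and 27.7, with a median of 0 counts in both. The cystatin and defensin genes varied less: Cst9 gave 2.81 and 3.80. Clu and Cst9 are genes of the rule, so their spread over members follows in part from the choice of members. The ranked barcodes were also mixed. Of them, 63 of 98 in KO and 17 of 181 in WT held 10% or more of their counts on condensing spermatid genes. The part of that mixture in the spread was not tested.

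The target of the knockout was read first. Nsun7 (chr5:66259897-66298026, + strand) had 47 counts in KO members and 210 in WT members, or 20.6 CPM and 52.6 CPM, a log2 ratio of KO to WT of -1.35 (-1.84 to -0.89). In the other kept barcodes it had 41.2 CPM in KO and 176 CPM in WT. In members Nsun7 was thus lower than in the rest of its own library in both genotypes. Over the 4 bands of rule gene share, from lowest to highest, it had 37.4, 9.93, 12.9 and 0 CPM in KO. In WT it had 100, 92.7, 35.1 and 13.5 CPM. Members with the most Sertoli transcripts thus held the least Nsun7, and the part of other cells' transcripts in its member ratio was not tested. After thinning, 2.06% of KO and 6.23% of WT members carried a count, against 3.74% and 13.6% of the others, so members carried it less often than the rest in each library. Since the deleted stretch is not given in the labels, the counts left in KO cannot be placed inside or outside it.

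Sertoli barcodes made up 3.85% of kept barcodes in KO (3.54 to 4.18) and 4.35% in WT (4.03 to 4.68), a difference of -0.496 percentage points (-0.952 to -0.0387). This order depended on the limit on mitochondrial counts. Above 20% mitochondrial counts there were 2966 KO barcodes and 1237 WT barcodes, and 2484 and 891 of them met the rest of the rule. With no limit the share was 17.9% in KO (17.4 to 18.5) and 9.46% in WT (9.01 to 9.92), and 82.3% of those KO barcodes and 57.5% of those WT barcodes lay above the limit.

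The share of barcodes that met the rule climbed with the mitochondrial share in both libraries, up to the bin of 30 to 50%. From 0 to 5% mitochondrial counts it was 0.350% in KO and 0.749% in WT, and from 15 to 20% it was 49.2% and 51.1%. From 20 to 30% it was 72.3% and 73.0%. From 30 to 50% the libraries parted, with 1344 KO barcodes (90.4% of their bin) and 360 WT barcodes (74.2%). The 12 markers outside the rule rose over the bins within the limit, from 2981 CPM in KO and 2956 CPM in WT at 0 to 5% to 7737 CPM and 10720 CPM at 15 to 20%. With 1 library each, genotype and preparation cannot be told apart here.

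**Figure D3:**
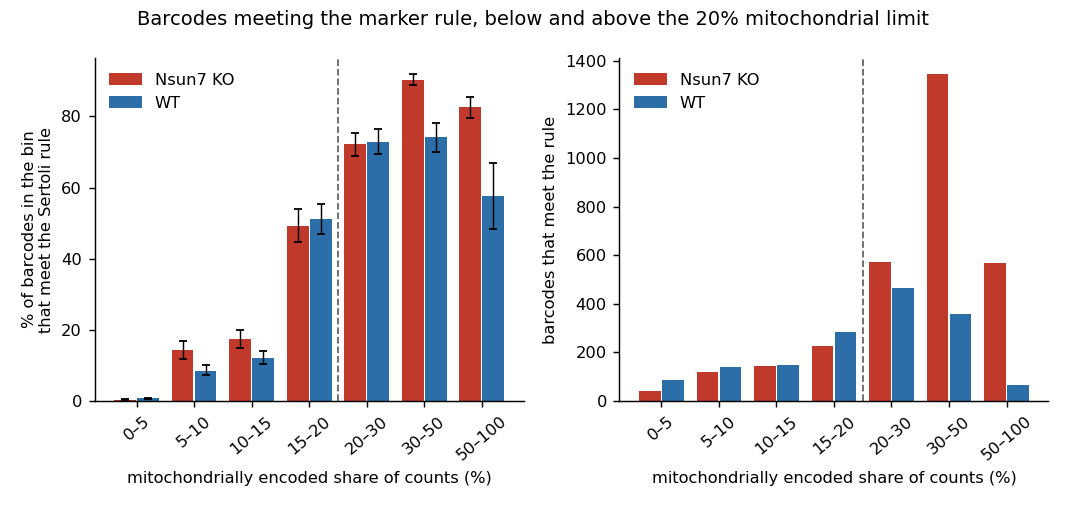
Barcodes binned by percent of counts on mitochondrially encoded genes (x), KO beside WT in each bin: left, percent of the bin's barcodes that met the rest of the rule, with exact binomial 95% bars; right, how many did. The dashed line is the 20% limit; the largest bin of rule barcodes is 30 to 50% in KO (1344) and 20 to 30% in WT (464).

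Between genotypes, genes of condensing spermatids were higher in KO members and most Sertoli genes lower, on the CPM scale of all members. Of the 3787 genes, 412 (10.9%) were higher in KO by 2 times or more and 264 (6.97%) lower by as much, with 5 CPM added to both sides. The protamine gene Prm1 had 28448 CPM in KO and 8132 CPM in WT members, and in the other kept barcodes it was higher in KO too, as were the 6 condensing spermatid genes together, at 176227 CPM in KO against 81337 CPM in WT. In members those 6 summed to 91860 CPM in KO and 28057 CPM in WT. None of the 1305 genes that were 2 or more times the rest was among the 412, while 148 of them were among the 264, and 1293 were lower in KO. The median log2 ratio over all 3787 genes was itself -0.42, so values below 0 were common on this scale. The 6 condensing spermatid genes, higher in the rest than in members, could not be among the 1305. After the Sertoli scaling described next, 6 of the 1305 were 2 times lower and 0 were 2 times higher. The genes that set that scale are among the 1305, so these low counts follow in part from the scaling.

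The size of these differences depended on the scale. The median log2 ratio over the 3787 genes was -0.42, and -0.58 over the 1305. Of the 298 genes at 8 or more times the rest, 278 had 50 CPM or more in each library and lay outside the rule. The Sertoli scaling made the summed counts of those 278, as a share of all member counts, equal in both libraries. It was chosen after the data had been seen and moved every ratio by 0.54. On that scale 710 genes (18.7%) were 2 times higher in KO and 9 (0.238%) lower, and of 10612 genes at 10 CPM or more in either library 18.5% were 1.5 times higher and 8.07% lower. The medians of the 14 gene lists then ran from -0.32 for junction genes to 0.21 for metallothionein, glutathione and antioxidant genes. The 278 include list genes, among them Sox9, Wt1, Inha, Cldn11 and Amhr2. A scaled median near 0 thus follows in part from the scaling and is no separate result. Statements on the Sertoli lists below therefore give 3 comparisons: all members, and 2 sets in which the rule genes held 1% or more, the shallow set (177 KO and 177 WT barcodes under 5000 counts) and the deep set (20 KO and 113 WT barcodes). Levels in both sets are CPM of counts outside mitochondrially encoded genes. The condensing spermatid genes held 5.69% of counts in KO and 4.10% in WT in the shallow set, and 4.93% and 1.55% in the deep set. In the 12 KO and 129 WT members where these genes held under 1% of counts, 17 of 54 named-gene ratios changed sign against all members, each with 5 CPM added. Clu stood at 0.19 there, Cldn11 at 0.19, Ctsl at 0.22, Gpm6b at 0.25, Reep1 at 0.35 and Wt1 at 0.04, all of them below 0 over all members.

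In the shallow set 80 of 4312 genes (1.86%) were 2 times higher in KO and 243 (5.64%) lower, with a median log2 ratio of 0.01. In the deep set 208 of 4728 (4.4%) were higher and 54 (1.14%) lower, with a median of -0.11. Only 10 of the 412 genes called higher among all members were called higher in the shallow set, against 197 in the deep set, and 56 and 14 of the 264 called lower. For the gene lists a gene was counted at 10 CPM or more in either library when it differed 1.5 times: over all genes, 11% were higher and 39.3% lower among all members (of 10612), 16.6% and 26.3% in the shallow set (of 11295), and 9.35% and 17.8% in the deep set (of 10729).

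Of 14 measured transcription factors of the Sertoli cell, 7 were 1.5 times lower in KO over all members and none higher, with a median log2 ratio of -0.59 (-0.07 after Sertoli scaling), beside -0.48 over all genes on the same minimum. In the shallow set 4 of 16 were higher and 1 lower (median 0.19), and in the deep set none of 14 was higher and 3 were lower (median -0.19). Sox9, the factor that specifies the lineage, had 78.8 CPM in KO and 191 CPM in WT members, a log2 ratio of -1.28 (-1.52 to -1.04). It had 39 counts in KO and 54 in WT in the shallow set, with a ratio of -0.36 (-0.99 to 0.26), and 208 CPM in KO and 344 CPM in WT in the deep set, with a ratio of -0.73 (-1.07 to -0.40). Its value was below 0 in each comparison, but the shallow interval holds 0. Wt1, which maintains the Sertoli state, had 148 CPM in KO and 239.6 CPM in WT members, and its ratio was 0.42 (-0.10 to 0.94) in the shallow and -0.29 (-0.56 to -0.02) in the deep set. Its direction thus differed between the depth classes. Rhox5, a homeobox gene of the Sertoli cell, had a ratio of -0.63 over all members, 0.13 in the shallow set and -0.62 (-1.01 to -0.24) in the deep set, but 1 KO barcode held 34 of its 66 deep counts and the ratio was -1.40 without the top barcode of each library. Sox9 over the single deep barcodes ran from 0 to 479 CPM in KO (median 127) and from 0 to 1415 CPM in WT (median 294), so the barcodes of the 2 libraries overlapped.

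Of 9 measured hormones and signalling ligands, 4 were lower and 2 higher in KO over all members, beside 39.3% lower and 11% higher over all genes (median -0.58, or -0.07 after Sertoli scaling), against 1 and 2 of 8 in the shallow set (median 0.32) and none of 8 in either direction in the deep set. Inha, the inhibin alpha subunit, was the most abundant at 337 CPM in KO and 505 CPM in WT members, with ratios of -0.59 over all members, 0.37 in the shallow and -0.21 in the deep set. Dhh, the hedgehog ligand of the Sertoli cell, had 70.5 CPM in KO and 117 CPM in WT members and a ratio of -0.15 (-0.53 to 0.21) in the deep set. Kitl, the ligand of the KIT receptor on spermatogonia, had 59.5 CPM in KO and 91.6 CPM in WT members and a ratio of -0.29 (-0.75 to 0.15) there. Jag1 was one of the 2 higher ligands, at 26.3 CPM in KO and 10.3 CPM in WT members, and the other kept barcodes held more of it, at 37.4 CPM in KO and 21.6 CPM in WT.

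Of 15 measured receptors 6 were lower and none higher over all members (median -0.49, or -0.05 after Sertoli scaling). Over all genes 39.3% were lower and 11% higher. In the shallow set 6 receptors were higher and none lower (median 0.30), beside 16.6% higher over all genes. In the deep set 1 was higher and 1 lower (median 0.19). Amhr2 was the most abundant, with 602 CPM in KO and 918 CPM in WT members and a ratio of -0.61 (-0.70 to -0.52). In the deep set Amhr2 had 1494 CPM in KO and 1584 CPM in WT, with a ratio of -0.08 (-0.21 to 0.04), and in the shallow set 0.24 (0.01 to 0.47). Fshr had 15 counts in KO and 46 in WT in the deep set, a ratio of 0.55 (-0.40 to 1.42).

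Blood-testis barrier and junction genes had the lowest median of the 14 lists over all members: 17 of 21 were 1.5 times lower in KO, none was higher and the median was -0.84 (-0.32 after Sertoli scaling). In the shallow set 4 of 20 were higher and none lower (median 0.17), and in the deep set 1 of 20 was lower and none higher (median -0.10). Cldn11 had a ratio of -0.83 (-0.96 to -0.70) over all members, 0.07 (-0.25 to 0.40) in the shallow and -0.18 (-0.36 to -0.0021) in the deep set. Gja1, the gap junction protein connexin 43, had 97.6 CPM in KO and 175 CPM in WT members with a ratio of -0.85, but 0.16 and 0.06 in the 2 sets. Espn gave -0.67, 0.18 and -0.34 (-0.48 to -0.19) in the same order. Ocln, which encodes occludin, had the lowest ratio of the list over all members, at 12.3 CPM in KO and 35.0 CPM in WT, a ratio of -1.52, with 8 counts in KO and 2 in WT in the shallow set and a deep-set ratio of -0.63 (-1.43 to 0.09).

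Among secreted carriers, protease inhibitors and proteases 10 of 19 were lower and 2 higher over all members (median -0.69, or -0.14 after Sertoli scaling), 1 and 4 in the shallow set (median 0.33) and 1 and 2 in the deep set (median -0.16). Clu gave -0.90 (-0.94 to -0.86) over all members, 0.10 (0.0014 to 0.20) in the shallow set and -0.13 (-0.18 to -0.08) in the deep set. Trf, the transferrin gene, had 75.3 CPM in KO and 138 CPM in WT members and a deep-set ratio of -0.04, and the prosaposin gene Psap had 432 CPM in KO and 861 CPM in WT members and a deep-set ratio of -0.19. The defensins stood apart from Clu within the same barcodes. Defb36 had a ratio of 0.01 (-0.08 to 0.10) over all members, 0.71 (0.49 to 0.94) in the shallow and 0.08 (-0.07 to 0.23) in the deep set, and Defb19 -0.16 (-0.22 to -0.11), 0.38 (0.25 to 0.51) and -0.22 (-0.32 to -0.13). The 2 higher genes over all members were Cst8, at a ratio of 1.35, and Serping1, at 15.3 CPM in KO and 7.26 CPM in WT members.

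Sertoli cells turn glucose into lactate for germ cells. In the lactate, glucose and creatine list 5 of 14 genes were lower and 2 higher over all members (median -0.36, or 0.17 after Sertoli scaling). Over all genes 39.3% were lower and 11% higher. In the shallow set 1 of 14 was lower and 3 higher, and in the deep set 2 of 15 were lower and 2 higher. The higher genes, Hk1 and Glul, hexokinase 1 and glutamine synthetase, had 834 CPM in KO and 323 CPM in WT and 739 CPM in KO and 303 CPM in WT members, and both were more abundant still in the other kept barcodes, at 1162 CPM in KO and 724 CPM in WT and 1108 CPM in KO and 578 CPM in WT. Slc2a3, a glucose transporter gene, had 71.4 CPM in KO and 212 CPM in WT members and ratios of -1.57 over all members, -1.46 in the shallow and -1.41 in the deep set. It too was more abundant in the other barcodes, at 105 CPM in KO and 555 CPM in WT. Ldhb and Gatm, the lactate dehydrogenase B and creatine synthesis genes with Sertoli levels, had deep-set ratios of -0.07 and -0.07.

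Genes for clearance of germ cell remnants and lysosomes had 12 of 23 lower and none higher over all members (median -0.60, or -0.06 after Sertoli scaling), 1 and 5 in the shallow set (median 0.35) and 1 and 1 in the deep set (median -0.09). The receptors Mertk, Axl and Tyro3, which recognise dying cells through GAS6, had 18.8 CPM in KO and 46.3 CPM in WT, 67.0 CPM in KO and 133 CPM in WT and 40.3 CPM in KO and 91.6 CPM in WT members. Their deep-set ratios were -0.47 (-1.13 to 0.13), -0.41 (-0.79 to -0.06) and -0.70 (-1.20 to -0.24), and that of Gas6 was -0.40 (-0.62 to -0.18). These 4 deep values were all below 0, with 9 and 7, 37 and 39, 20 and 13, and 166 and 137 counts in KO and WT in the shallow set, where all 4 ratios were above 0. Retinoid genes had 3 of 10 lower and none higher over all members (median -0.30, or 0.16 after Sertoli scaling), beside 39.3% lower over all genes. In the shallow set 1 of 11 was lower and 3 higher (median -0.09). In the deep set 2 of 11 were lower and 3 higher (median -0.20).

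Cytoskeleton genes differed little, with 2 of 13 lower, none higher and a median of -0.41 over all members (0.13 after Sertoli scaling). In the shallow set 1 of 14 was higher and none lower (median 0.24), and in the deep set 1 of 14 differed in each direction. Vim, the vimentin gene of Sertoli cells, had 456 CPM in KO and 606 CPM in WT members and a deep-set ratio of 0.02. Metallothionein, glutathione and antioxidant genes had 2 of 22 higher and 1 lower over all members (median -0.32, or 0.21 after Sertoli scaling). The higher ones, Gpx4 and Gstm5, were higher still in the other barcodes, at 3443 CPM in KO and 2578 CPM in WT and 3109 CPM in KO and 2451 CPM in WT. In the shallow set 2 of 22 were higher and none lower (median 0.08), and in the deep set 3 of 23 were higher and 1 lower (median -0.19). Steroid and lipid genes had 6 of 14 lower and 3 higher over all members (median -0.46, or 0.04 after Sertoli scaling). Over all genes 39.3% were lower and 11% higher. In the shallow set 2 of 17 were lower and 4 higher (median -0.06), and in the deep set 2 of 15 were lower and 2 higher.

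Endoplasmic reticulum chaperones were lower over all members, with 13 of 17 lower, 1 higher and a median of -0.80 (-0.30 after Sertoli scaling). Hsp90b1 had 627 CPM in KO and 1356 CPM in WT members, Hspa5 439.5 CPM in KO and 950.5 CPM in WT and Calr 249.5 CPM in KO and 539.7 CPM in WT. Within the sets the differences were small, with 3 of 17 lower in the shallow and 1 lower and 1 higher in the deep set, and ratios for Hsp90b1 of -0.19 (-0.41 to 0.04) and -0.17 (-0.28 to -0.06). The 1 higher gene was Herpud1, at 291 CPM in KO and 113 CPM in WT members and 507 CPM in KO and 284 CPM in WT in the others.

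**Figure D4:**
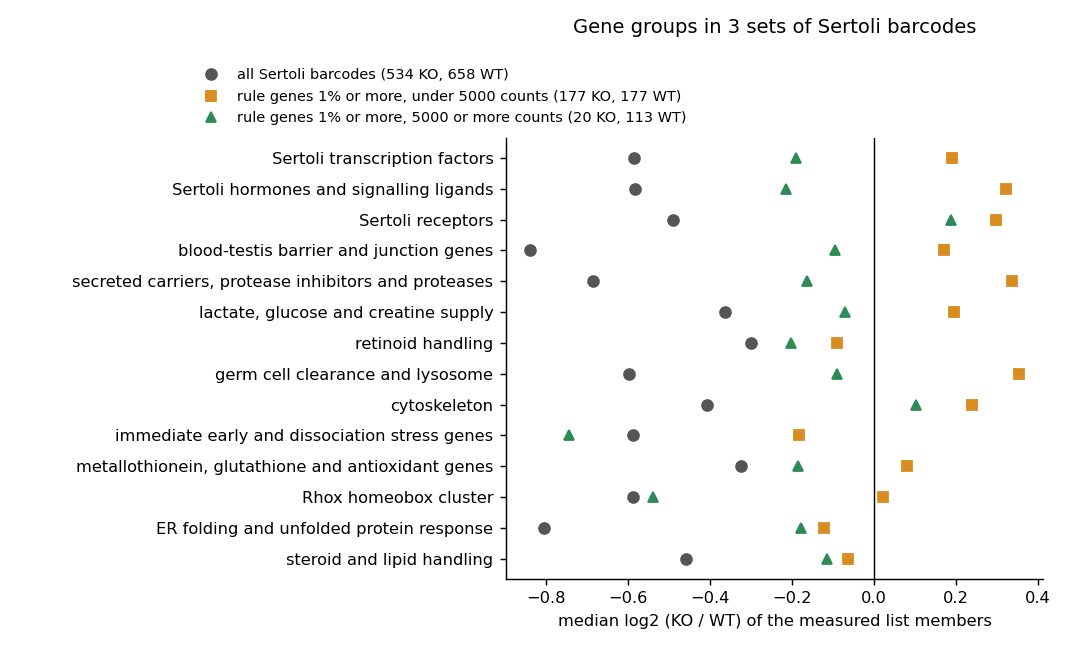
Median log2 ratio of KO to WT (x) of each gene list (down the page) in all members, in shallow barcodes with 1% or more of rule genes and in deep ones, marked by colour. Over all members every list lies left of 0 (from -0.84 for junction genes to -0.30 for retinoid genes; from -0.32 to 0.21 after Sertoli scaling, not drawn), while in the shallow set most lie at or right of 0 and in the deep set the immediate early genes lie lowest, at -0.74.

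The immediate early and dissociation stress genes had the lowest median of the 14 lists in the deep set. These genes switch on within minutes of handling, cutting or signalling. Over all members 10 of 20 were lower and none higher, with a median of -0.59 (-0.19 after Sertoli scaling). In the deep set 12 of 19 were lower and 1 higher, with a median of -0.74, beside 17.8% lower over all genes. Jun had 148 counts in KO and 1052 in WT there, or 361 CPM in KO and 571 CPM in WT, a ratio of -0.66 (-0.92 to -0.41). Egr1 had 105 CPM in KO and 199.9 CPM in WT, a ratio of -0.93 (-1.42 to -0.47), and Junb 144 CPM in KO and 250.4 CPM in WT, a ratio of -0.80 (-1.21 to -0.40). Fos had 34 counts in KO and 175 in WT, a ratio of -0.20 (-0.77 to 0.34).

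Over the single barcodes of the deep set the medians of Jun and Egr1 were not lower in KO, while those of Junb and Ier2 were. Jun ran from 0 to 1601 CPM in KO, with a median of 227 CPM, and from 0 to 3457 CPM in WT, with a median of 215 CPM. Egr1 had a median of 0 CPM in both, with counts in 8 of 20 KO and 44 of 113 WT barcodes, and a highest value of 464 CPM in KO and 1930.2 CPM in WT. The median of Junb was 110.2 CPM in KO and 137 CPM in WT, and that of Ier2, an immediate early response gene, 93.1 CPM in KO and 118 CPM in WT. Without the top barcode of each library the ratios were -0.69 for Jun and -1.28 for Egr1. Barcodes of 1 library are not replicates of a genotype, and a maximum depends on the number of barcodes, here 20 in KO and 113 in WT.

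The shallow set held few counts of these genes: Jun had 8 in KO and 13 in WT, a ratio of -0.59 (-2.07 to 0.79), and Egr1 3 and 8. Over that list 5 of 18 were lower and 4 higher (median -0.18). The KO deep set held 20 barcodes and 493145 counts, and the WT deep set 113 barcodes and 2229597 counts, mitochondrially encoded genes included.

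Barcodes above 20% mitochondrial counts that met the rest of the rule, 2484 in KO and 891 in WT, gave a second set of Sertoli levels, as CPM of counts outside mitochondrially encoded genes. Of 4603 genes at 50 CPM, 249 (5.41%) were 2 times higher in KO and 356 (7.73%) lower. Immediate early genes were 1.5 times lower in 16 of 18 measured, with none higher and a median log2 ratio of -1.29, beside 8.4% higher and 24.2% lower over 10904 genes. Egr1 had 22.3 CPM in KO and 127 CPM in WT there, a ratio of -2.51, and Jun 97.8 CPM in KO and 447 CPM in WT, a ratio of -2.19. Lysosome genes had 13 of 23 lower (median -0.78) and junction genes 15 of 20 (median -0.75), with none higher in either. Antioxidant genes had none of 23 lower and 2 higher (median 0.23), and cytoskeleton genes none of 13 in either direction. The Sertoli genes did not move together: Clu had 4153 CPM in KO and 8718 CPM in WT, a ratio of -1.07 (-1.10 to -1.04), while Cst9 had 3521 CPM in KO and 3408 CPM in WT, a ratio of 0.05 (0.01 to 0.08). These barcodes held a larger mitochondrial share and fewer counts in KO than in WT, and the part of either in these values was not tested.

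**Figure D5:**
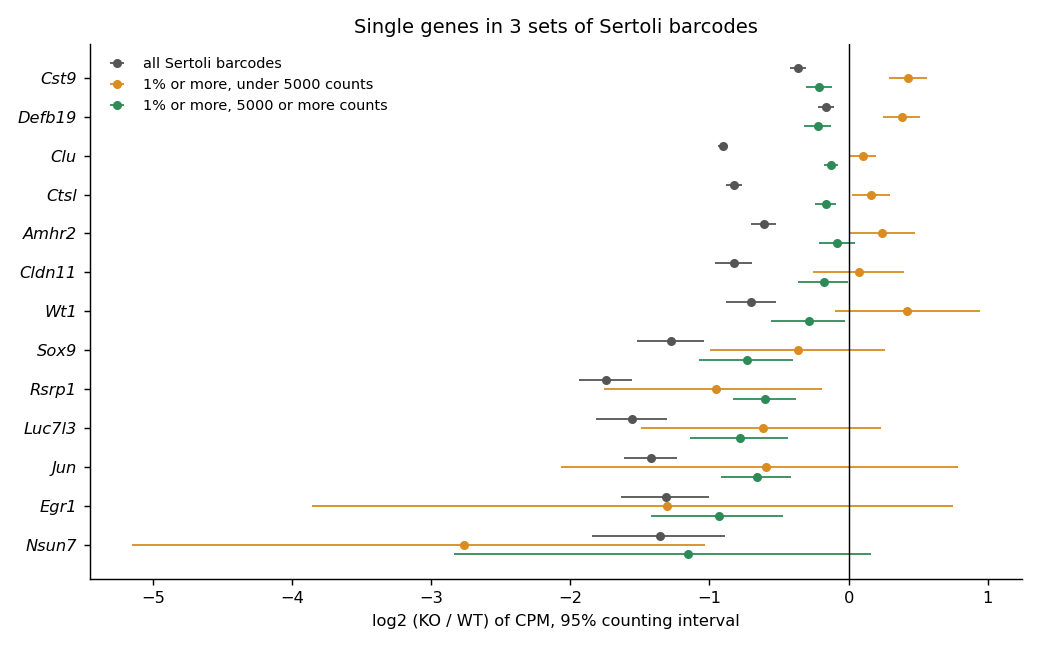
Log2 ratio of KO to WT with its 95% counting interval for 13 genes (down the page), in all members (CPM of all counts) and in the shallow and deep sets (CPM outside mitochondrially encoded genes). Clu, Cldn11 and Amhr2 lie below 0 in all members (-0.90, -0.83 and -0.61) and between -0.18 and 0.24 in both sets, while the points of Rsrp1 and Nsun7 lie below 0 in each; the deep interval of Nsun7 holds 0.

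Genes at 2 or more times the rest in at least 1 library were ranked by their KO to WT ratio at a mean of 50 CPM. The 12 highest included Acta2, Gsn, Hsd17b10, Gp1bb, B2m, Rab5if, Cd59a, S100a10, Fos, Atp6v0e and Rnf181. Most differed little: Fos had 102 CPM in KO and 96.1 CPM in WT and Rnf181 531 CPM in KO and 508 CPM in WT members. This choice favours genes that are high in 1 library: 4 of the 12, among them Acta2 and Gsn, were 2 times the rest in KO but not in WT (5 CPM added), so their place in this ranking follows in part from the choice. Acta2, the smooth muscle actin of peritubular myoid cells, had 88.4 CPM in KO and 11.8 CPM in WT, but 1 KO barcode supplied 119 of its 202 counts (58.9%), and without that barcode KO stood at 36.4 CPM. In Gsn, the gelsolin gene, 1 barcode supplied 59 of 189 KO counts. Rab5if had 212 CPM in KO and 66.9 CPM in WT in the shallow set, a ratio of 1.67 (0.89 to 2.50), against 0.20 (-0.06 to 0.45) over all members.

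The 12 lowest were Mgp, Rsrp1, Itpr2, Golgb1, Pnn, Luc7l3, Soat1, Plxnb2, Pard3b, Gpatch8, Strip2 and Chd8. Mgp, a matrix Gla protein gene of stromal cells, had 30.2 CPM in KO and 132 CPM in WT, but 1 WT barcode supplied 213 of its 528 counts, and without it WT stood at 79.0 CPM. Rsrp1, an arginine and serine rich protein gene, had 116 CPM in KO and 387 CPM in WT members, with ratios of -1.74 (-1.94 to -1.56) over all members, -0.96 (-1.76 to -0.19) in the shallow and -0.60 (-0.83 to -0.38) in the deep set. Luc7l3, a U1 snRNP-associated factor, had 66.5 CPM in KO and 196 CPM in WT members and ratios of -1.56 (-1.82 to -1.31), -0.61 (-1.49 to 0.23) and -0.78 (-1.14 to -0.43). Pnn, which encodes pinin, had 89.7 CPM in KO and 270.4 CPM in WT members and -0.55 (-0.82 to -0.28) in the deep set. Golgb1, a Golgi membrane protein gene, and Itpr2, an inositol trisphosphate receptor gene, had -0.65 (-1.09 to -0.24) and -0.44 (-0.80 to -0.09) there. These 5 genes had ratios below 0 in all members, the shallow set and the deep set, though the shallow intervals of Pnn, Golgb1 and Luc7l3 held 0. They were chosen for low ratios over all members, and both sets are parts of those members. The shared sign thus follows in part from the choice. Strip2, another of the 12, stood at 0.72 in the shallow set with 5 CPM added. With condensing spermatid genes under 1% the 5 ran from -0.54 for Luc7l3 to -0.09 for Itpr2, with 5 CPM added. In the other kept barcodes Rsrp1 had 22.9 CPM in KO and 62.0 CPM in WT and Luc7l3 20.8 CPM in KO and 45.8 CPM in WT.

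Markers of other cell types moved with the comparison and are given beside it. Spermatocyte markers (7 of 7 at 10 CPM or more) summed to 2230.4 CPM in KO and 2712 CPM in WT members, against 3911 CPM and 6693 CPM in the others; Sycp3 had 61.7 CPM in KO and 214 CPM in WT members. Leydig markers (7 of 10) summed to 506 CPM and 550.2 CPM, and round spermatid markers (6 of 6) to 1066 CPM and 637 CPM. In both lists most single genes ran against the sum. Of the 7 Leydig markers 4 were 1.5 times higher in KO and 0 lower (median log2 ratio 0.62). Of the 6 round spermatid markers 1 was higher and 3 were lower (median -0.68). Over all genes 11% were higher and 39.3% lower. Macrophage markers (5 of 8) summed to 132 CPM and 51.8 CPM, myoid markers (4 of 6) to 437 CPM and 120 CPM, and stromal markers (3 of 8) to 121 CPM and 57.8 CPM, all higher in KO members. Endothelial markers (3 of 7) summed to 24.95 CPM and 60.3 CPM. Cnn1 of the myoid list had 0 counts in KO and Lum of the stromal list had 0 in WT. In the deep set macrophage markers summed to 14.6 CPM in KO and 13.6 CPM in WT and endothelial markers to 9.77 CPM and 7.60 CPM. The myoid sum stayed higher in KO there, at 203 CPM against 87.4 CPM in WT. Only 2 of the 6 myoid genes were measured there, and 1 was 1.5 times higher, beside 9.35% over all genes. In the shallow set Actg2 alone held 182 of the 201 CPM in KO and 116 of the 130 CPM in WT. The other kept barcodes held more of the myoid list than members, at 560 CPM in KO and 293 CPM in WT. The stromal sum was lower in KO in the deep set, at 14.6 CPM against 52.1 CPM in WT, with 1 of 8 genes measured. Apart from the deep and shallow values, the part of these markers in the differences over all members was not tested.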

How the data were processed

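The deposited counts are whole-number counts per gene and barcode from PISA 0.12, per the file headers; the build was GRCm38, per the submitters' processing notes. The aligner, annotation, strand setting and barcode filter were not given in the sources used here. Both members and gene lists were chosen with earlier results of these data known. Counts were summed over member barcodes of each library and divided by their total to give CPM. Gene ratios had 5 CPM added to both sides for ranking and for counting, over genes averaging 50 CPM and with a 2-fold limit, leaving out mitochondrially encoded genes; printed log2 ratios of single genes are without it, with exact conditional binomial intervals. Lists used 10 CPM or more in either library and a 1.5-fold difference. Shares carry exact Clopper-Pearson intervals at 95%, differences of shares a Newcombe interval, and a count of 0 a floor of 3 counts. For detection each barcode was thinned to 1000 counts, which left out no kept barcode. Doublets were called with Scrublet in scanpy 1.11.5: 622 KO and 600 WT kept barcodes (4.48% and 3.96%), 4 and 4 of them members, and they were kept. Named genes were the 6 rule genes, the 20 highest over the rest at 50 CPM or more in both libraries, the 12 highest and 12 lowest KO to WT ratios among genes at 2 or more times the rest in 1 library or more, abundant or extreme list members, and Nsun7; some of these are not reported here. Counts were simulated for 12919 genes, 4475 of them at the 50 CPM minimum. At the minimum the 2-fold rule called 85 of 85 genes changed 3-fold, 0 of 90 changed 1.5-fold and 0 of 4300 unchanged ones. The intervals covered the true ratio in 95.4% of those 4475 genes, and coverage below the minimum was not measured. This tests counting error only, at the depth of the sums over all members. The shallow set, with 305107 counts in KO and 323560 in WT, and the deep set were not simulated. The calls above therefore do not carry over to them. Promoters came from RefSeq, and coordinates from GENCODE on GRCm38. Python 3.11.15, numpy 2.4.6, scipy 1.17.1 and pandas 2.3.3 were used. Alternatives tried were other cell filters, other limits of the rule, doublets left out, other scalings, minimums and weights.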

Additional observations from a re-analysis of the deposited data

Results flagged for a closer look

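Barcodes above the 20% limit on mitochondrial counts lay outside every comparison of members, yet most of them carried the Sertoli signature: 83.7% of 2966 in KO (82.4 to 85.1) and 72.0% of 1237 in WT (69.4 to 74.5) met the rest of the rule. They were set aside by the limit and drew attention because these shares were far above the member shares among kept barcodes, 3.85% in KO and 4.35% in WT. Their median depth was 1858.5 counts in KO and 2357 counts in WT, and their median mitochondrial share 39.8% and 29.5%.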

How the results depend on the processing

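No paired analysis was possible because each genotype had 1 library, and no library could be left out. The difference in share between KO and WT kept barcodes, -0.496 points, turned round to 8.47 with no cell filter and, added after seeing the data, to 0.438 at a 30% and 6.06 at a 50% mitochondrial limit; it kept its sign under the other alternatives run. The counts of genes at 2 times higher and lower, 412 and 264, became 178 and 23 with rule genes at 1% or more, 143 and 660 under a stricter cell filter, 43 and 172 with condensing spermatid genes under 1%, 669 and 18 with trimmed mean scaling, 66 and 128 with barcodes weighted equally, 216 and 27 at 200 CPM and 186 and 82 with the library profile subtracted. Higher counts were 69 with no cell filter, lower counts 93 without Clu and Gatm, 787 at 10 CPM and 536 at 5000 counts or more. Of the alternatives added after seeing the data, scaling to Sertoli genes gave 710 and 9, the 1% limit outside mitochondrial genes 180 and 38, no cell filter outside those genes 235 higher, and 1% with under 5000 counts 80 higher. Acta2 turned to -0.44 at 1% or more, -0.16 without Clu and Gatm, -0.48 at 1% outside mitochondrial genes and -0.22 at 1% under 5000 counts, where Strip2 turned to 0.72. Leaving out doublets (413 and 267) changed no direction among 54 gene values. Of the same 54, 17 changed sign with condensing spermatid genes under 1% (16 of them to above 0), 25 at 1% under 5000 counts, 13 at 1% or more, 12 after Sertoli and 11 after trimmed mean scaling, 11 with the library profile subtracted and 3 to 15 under the other alternatives that changed any. The causes were not tested. Depth limits the shallow set: with 8 counts of Jun in KO its interval held both 0 and the deep-set ratio.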

Other observations

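St8sia3, a sialyltransferase gene chosen after its values were seen, was higher in KO in each of these sets: 58.2 CPM in KO and 13.3 CPM in WT over all members, and log2 ratios of 2.11 (0.65 to 3.88) in the shallow set, 2.28 (1.08 to 3.48) in the deep set and 3.15 above 20% mitochondrial counts. In the other kept barcodes it had 66.5 CPM in KO and 39.2 CPM in WT. It overlaps an antisense gene on the opposite strand, so with the strand setting not given the reads of the pair cannot be told apart.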
